A study of Mus musculus with 8 samples.

Results

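The Fox, Gata, Sox and Tbx genes encode 4 families of DNA-binding transcription factors, many of which, though not all, help to set cell lineage. Their expression was read from RNA sequencing of 8 mouse libraries. Members were chosen by symbol alone: Fox followed by a letter and digits, with the cell cycle factor Foxm1 left out, or Gata, Sox or Tbx followed by digits. The rule gave 81 of the 21878 genes in the deposited table, of which 43 were Fox, 6 Gata, 19 Sox and 13 Tbx genes. The labels name the tissue lung and the cell type pulmonary endothelial cells, and divide the libraries by treatment into 4 Ad-control and 4 Ad-KLK8, the second group carrying the name of kallikrein-related peptidase 8, a secreted serine protease. Strain, age, time after treatment and any agent shared by both groups are not given in the labels, nor is it given whether the 4 libraries of a group came from separate animals or cultures, so the p-values below measure the spread between libraries, which may be technical.

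Each family shares a DNA-binding domain: the forkhead domain in Fox, a pair of zinc fingers that read GATA in Gata, the high-mobility-group box in Sox and the T-box in Tbx proteins. Lineages are specified by combinations of factors that include members of these families. In lung, Foxa1, Foxa2, Sox2 and Sox9 are known from epithelium, Foxj1 from ciliated cells, Sox7, Sox17 and Sox18 from endothelium, and Foxf1, Tbx2, Tbx3, Tbx4 and Tbx5 from mesenchyme. Gata4, Gata5, Gata6, Tbx18 and Tbx20 are known from the heart and its mesothelial cover.

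Values are RPKM, that is reads scaled to the length of the gene and to the reads of the library. Whole reads could be recovered from them, which gave about 15800000 to 16700000 reads in an Ad-control library and 17800000 to 18700000 reads in an Ad-KLK8 library. A count of 0 allows up to 3 reads of a library, or 0.16 to 0.19 RPM, counting error only. Within groups, Ad-KLK8 replicate 2 stood apart from the other Ad-KLK8 libraries (chi-square per degree of freedom of 17.98 to 19.6, against 2.12 to 2.63 among the other 3). The Ad-control libraries were uneven as well, with replicates 1 and 3 alike (2.45) and the other pairs at 6.32 to 10.5. Klk8 itself was listed at 1135, 1403, 1232 and 1422 RPKM in the Ad-control libraries and at 1159, 3263, 1354 and 1276 RPKM in the Ad-KLK8 libraries, a log2 difference of 0.31 (two-sided exact permutation p = 0.657, smallest possible 0.0286) and of −0.036 without Ad-KLK8 replicate 2, so the table does not show the named gene raised in 3 of the 4 libraries labelled Ad-KLK8. The labelled cell type was not clearly borne out by its markers. Of 15 endothelial markers, 10 had a mean under 0.5 RPKM, including Cdh5, Pecam1 and Cldn5. The other 5 had Ad-control means of 20.8 RPKM (Esam), 4.54 RPKM (Egfl7), 3.36 RPKM (Eng), 1.65 RPKM (Fli1) and 1.43 RPKM (Kdr). In the Ad-control libraries the summed markers were at 31.0 to 33.6 RPKM for endothelium, 2857 to 3090 RPKM for fibroblasts and 229 to 297 RPKM for mesothelium.

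Promoters of the member with the largest rise and of 3 members with large falls are shown here, since the results below turn on these genes. Each is the 250 bases before the RefSeq start of the gene (build GRCm38.p6), written 5′ to 3′ on the gene's own strand with CpG dinucleotides in capitals.
Gata5, chr2:180334680-180334929, minus strand: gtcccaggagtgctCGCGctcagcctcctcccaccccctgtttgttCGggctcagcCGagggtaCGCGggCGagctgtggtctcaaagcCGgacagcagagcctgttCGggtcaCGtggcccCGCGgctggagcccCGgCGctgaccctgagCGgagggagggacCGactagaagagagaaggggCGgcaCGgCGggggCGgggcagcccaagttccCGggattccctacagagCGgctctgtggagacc
Foxc1, chr13:31806396-31806645, plus strand: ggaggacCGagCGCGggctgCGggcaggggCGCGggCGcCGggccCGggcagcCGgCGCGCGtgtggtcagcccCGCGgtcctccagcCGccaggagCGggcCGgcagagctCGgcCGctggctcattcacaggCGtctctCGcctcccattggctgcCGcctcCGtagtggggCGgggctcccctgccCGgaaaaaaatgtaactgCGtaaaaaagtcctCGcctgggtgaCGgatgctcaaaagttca
Foxd1, chr13:98353995-98354244, plus strand: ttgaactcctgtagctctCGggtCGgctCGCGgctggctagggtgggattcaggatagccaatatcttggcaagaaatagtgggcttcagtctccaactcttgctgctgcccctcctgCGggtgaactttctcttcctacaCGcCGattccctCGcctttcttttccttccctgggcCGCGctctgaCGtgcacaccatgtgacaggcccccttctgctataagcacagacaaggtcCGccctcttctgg
Sox11, chr12:27342719-27342968, minus strand: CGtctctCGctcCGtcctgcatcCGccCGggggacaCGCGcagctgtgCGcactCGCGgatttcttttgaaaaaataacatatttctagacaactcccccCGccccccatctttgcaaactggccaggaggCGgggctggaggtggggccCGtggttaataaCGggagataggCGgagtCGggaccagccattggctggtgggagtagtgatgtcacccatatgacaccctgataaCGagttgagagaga

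These stretches held 22 CpG in Gata5, 29 in Foxc1, 12 in Foxd1 and 17 in Sox11, and 85.4%, 93.6%, 66.2% and 76.4% of 27025 RefSeq mouse promoters of the same length held fewer. Both strands were searched for the Gata motif AGATAA or TGATAA, the Fox motif GTAAACA, the Sox motif ACAATG and the Tbx motif GGTGTGA, which 17%, 3.09%, 11% and 3.31% of those promoters hold. The only match was 1 TGATAA in Sox11, 20 bases before the start, overlapping no other motif. RefSeq promoters were found for 54 of the 81 members, and with the other members missing the families' promoters were not compared with those of other genes.

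Levels were uneven within each family. Over all 8 libraries, 12 members had a mean of at least 10 RPKM, 19 had 1 to 10 RPKM, 6 had 0.5 to 1 RPKM, 36 were above 0 but under 0.5 RPKM, and 8 were listed at 0 in every library (Foxb1, Foxi2, Foxr1, Gata1, Sox14, Tbx10, Tbx19 and Tbx22). Sox4 and Gata6 were highest, followed by Foxf1, Foxp4 and Foxo3. Factors known from lung epithelium and endothelium were mixed in level, and several were under 1 RPKM. Foxa1 had a mean of 0.0800 RPKM in the Ad-control libraries, Foxa2 0.758 RPKM, Sox2 0.0431 RPKM and Foxj1 0.0221 RPKM. The endothelial Sox17 had 0.0463 RPKM, Sox18 0.0380 RPKM and Sox7 0.16 RPKM. Others were higher in the Ad-control libraries, with Sox9 at 2.21 RPKM, Foxp1 at 10.4 RPKM and Foxp4 at 27.5 RPKM. Gata2 was at 12.3 RPKM, and Foxf1, known from mesenchyme and capillaries, at 34.3 RPKM.

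**Figure D1:**
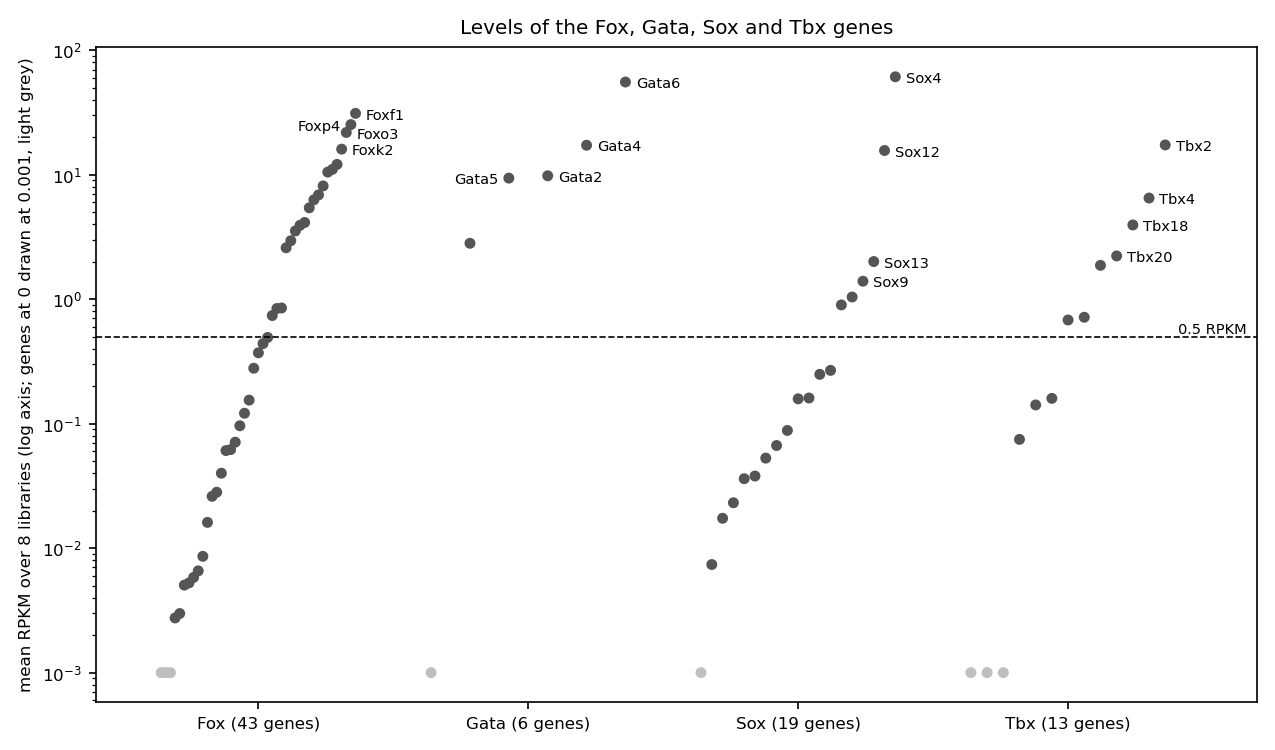
Mean level of each of the 81 genes over the 8 libraries, in RPKM on a log axis, by family; the dashed line marks 0.5 RPKM, the lowest mean tested, and light grey points are the 8 genes listed at 0. Most Fox and Sox genes lie under 0.5 RPKM, while 5 of the 6 Gata genes lie above it.

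The comparison of Ad-KLK8 with Ad-control libraries was fitted on log2(RPKM + 1). Genes entered it where their mean reached 0.5 RPKM, which left 11998 genes and, among them, 37 members (19 Fox, 5 Gata, 6 Sox and 7 Tbx). Foxc2, Foxd1, Sox11, Tbx5 and Tbx15 reached that mean only through the Ad-control libraries, their Ad-KLK8 means being under 0.5 RPKM. The minimum therefore favours a lower call for them, and their calls are a description that adds no support to the lower counts below. A log2 difference on this scale understates the change of genes with low values. Of these 37, 29 passed limma's test at an adjusted p under 0.05, 7 higher and 22 lower in the Ad-KLK8 libraries. That is 78.4% of the members, and 77.7% of all tested genes were called, 25.7% higher and 52% lower, so the share called among the members was close to that over all genes. Requiring a difference of at least 2-fold as well left 1 higher (Gata5) and 7 lower members (Foxc1, Foxd1, Gata3, Sox9, Sox11, Sox13 and Tbx2), where 12.2% of all tested genes met this rule, 2.35% higher and 9.85% lower. This rule was applied on the log2(RPKM + 1) scale. As ratios of mean RPKM, with no pseudocount, Foxc2, Tbx3, Tbx15, Tbx5, Foxf2 and Foxn2 were also at least 2-fold lower, by 4.002, 2.81, 2.31, 2.12, 2.07 and 2.01 times. In 29 of the 37 the 4 values of one group all lay above those of the other, 7 higher and 22 lower, against 72.2% of all tested genes (23.1% higher and 49.1% lower).

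The scale of the libraries bears on the direction of small differences. The median log2 difference was −0.19 over all tested genes and −0.29 over the 37 members. After median-of-ratios scaling, which sets the middle of the gene ratios to be alike between libraries, the medians were 0.019 and −0.078, and 30 members were called, 12 higher and 18 lower, against 77.3% of all tested genes (39.9% higher and 37.3% lower). With 2-fold required after scaling, Gata5 and Gata6 were higher and Foxc1, Foxd1, Gata3, Sox11 and Sox13 lower, where 10.9% of all tested genes met the rule, 4.36% higher and 6.53% lower. After scaling the groups did not overlap in 29 members, 11 higher and 18 lower, against 72% of all tested genes (37.2% higher and 34.8% lower). The 7 higher members and 18 of the 22 lower ones passed the test in the same direction under both scales. Foxf1, Foxp4, Gata4 and Tbx18 were lower only as deposited, and Foxn3, Foxo1, Foxo3, Sox4 and Tbx4 were higher only after scaling. The counts for families and gene lists below are to be read against these shares over all tested genes. In bulk RNA, fewer cells of a type and less RNA per cell cannot be told apart.

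**Figure D2:**
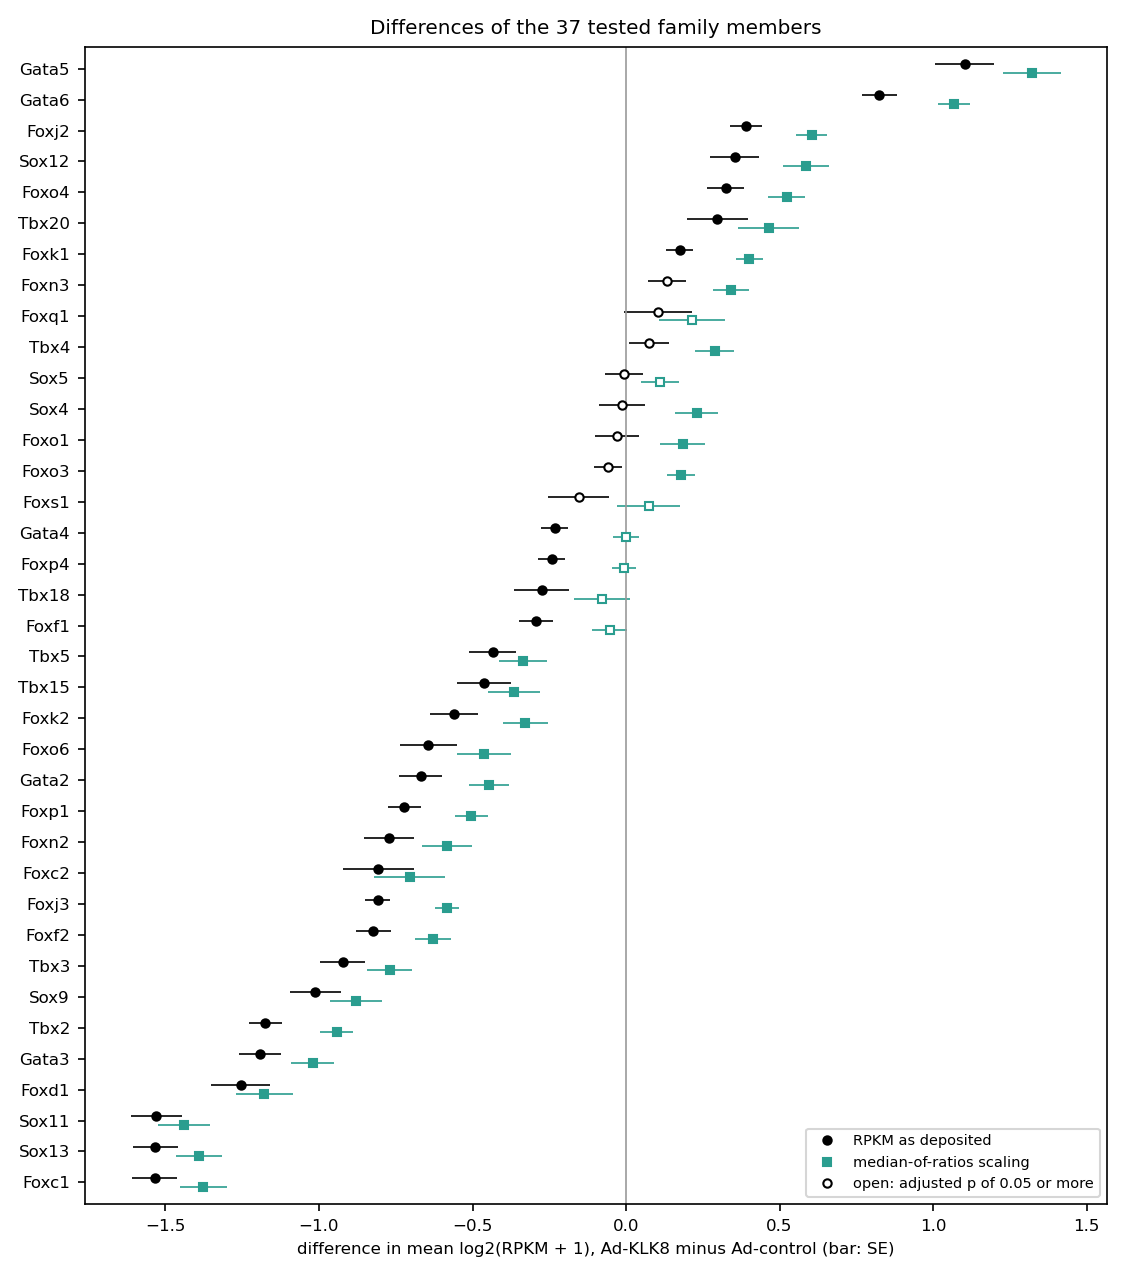
Difference in mean log2(RPKM + 1), Ad-KLK8 minus Ad-control, of the 37 tested genes; bars are standard errors, circles are RPKM as deposited, squares are after median-of-ratios scaling and open symbols did not pass the test. Gata5 and Gata6 stand at the top, and Foxc1, Sox13, Sox11 and Foxd1 at the bottom, under both scales.

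The Gata family showed opposite changes among its members. All 5 tested Gata genes were called, Gata5 and Gata6 higher and Gata2, Gata3 and Gata4 lower, with Gata4 no longer called after scaling. Over all tested genes 77.7% were called as deposited, 25.7% higher and 52% lower. Gata6, a regulator of endoderm, heart and smooth muscle, was listed at 43.0, 37, 40.4 and 38.9 RPKM in the Ad-control libraries and 69.3, 77.5, 67.2 and 71.2 RPKM in the Ad-KLK8 libraries. The groups did not overlap, and Gata6 rose from 39.8 ± 2.51 to 71.3 ± 4.45 RPKM (SD, n = 4), a log2 difference of 0.83 (SE 0.057, limma adjusted p = 2.82e-07). Gata5, a factor of heart and endoderm whose promoter is shown above, was listed at 5.97, 5.54, 6.68 and 4.36 RPKM in the Ad-control libraries and 12.7, 12.6, 13.2 and 14.1 RPKM in the Ad-KLK8 libraries. It rose in every Ad-KLK8 library above the highest Ad-control value, by a log2 difference of 1.10 (SE 0.096, limma adjusted p = 1.78e-06), and was the only member to rise by at least 2-fold as deposited. After median-of-ratios scaling Gata6 also passed 2-fold, at a log2 difference of 1.07 (limma adjusted p = 3.73e-08).

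Gata4, which acts with Gata6 in heart and mesothelial development, had 19.2, 18.6, 18.4 and 18.7 RPKM in the Ad-control libraries and 15.3, 15.1, 16.0 and 16.8 RPKM in the Ad-KLK8 libraries. Its values were lower in all 4 Ad-KLK8 libraries, with a log2 difference of −0.23 (SE 0.044, limma adjusted p = 0.000592), but after scaling the difference was 0.00041 (limma adjusted p = 0.993), so its direction rests on the scale. Gata2, known from blood progenitors and endothelium, had 13.4, 11.5, 13.5 and 10.8 RPKM in the Ad-control libraries and 7.48, 7.07, 7.29 and 7.45 RPKM in the Ad-KLK8 libraries. It fell, with a log2 difference of −0.67 (SE 0.07, limma adjusted p = 7.18e-06), and the groups did not overlap. Of 5 tested endothelial markers 4 fell in the same libraries and 1 did not pass, or 3 and 2 after scaling. Over all tested genes 52% were lower as deposited and 37.3% after scaling. The list's sum was 31.0 to 33.6 RPKM and 19.9 to 23.6 RPKM, of which Esam alone had means of 20.8 and 12.9 RPKM. Robo4, too low to be tested, went up from 0.0255 to 0.229 RPKM. The part of these markers in Gata2 was not tested. Gata3, known from T lymphocytes and luminal epithelia, had 4.43, 4.55, 3.71 and 4.54 RPKM in the Ad-control libraries and 1.42, 1.22, 1.26 and 1.38 RPKM in the Ad-KLK8 libraries. This was the largest fall of the family, with a log2 difference of −1.19 (SE 0.069, limma adjusted p = 8.31e-08). Gata1, the erythroid member, was listed at 0 throughout.

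The summed level of the Gata genes was 77.2 to 86.0 RPKM in the Ad-control libraries and 104.9 to 113.4 RPKM in the Ad-KLK8 libraries. Gata6 made up 49.3% ± 1.04 to 65.4% ± 1.99 of that sum (mean and SD over 4 libraries, Ad-control to Ad-KLK8), and Gata5 went from 6.96% ± 1.01 to 12.1% ± 0.734. Gata4 went from 23.2% ± 1.07 to 14.5% ± 0.903, Gata2 from 15.2% ± 0.997 to 6.73% ± 0.362 and Gata3 from 5.35% ± 0.673 to 1.21% ± 0.109. Gata2 exceeded Gata5 in each Ad-control library by 2.01 to 2.48 times and was at 0.5298 to 0.588 times Gata5 in each Ad-KLK8 library, a ratio within a library that no scaling alters. It was looked for after the values were seen and has no test.

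**Figure D3:**
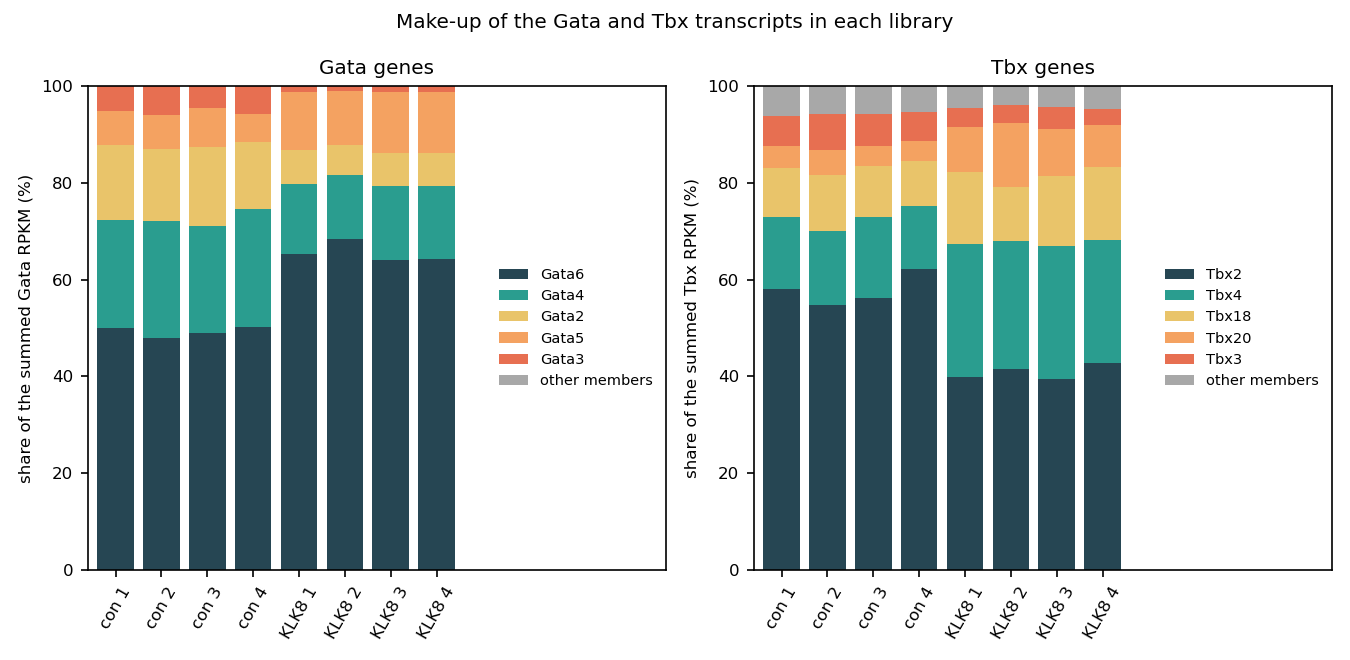
Share of the summed RPKM of the Gata genes (left) and Tbx genes (right) taken by each member in each of the 8 libraries; con marks Ad-control and KLK8 marks Ad-KLK8. Gata6 and Gata5 take larger shares in the 4 Ad-KLK8 libraries, and Tbx2 takes a smaller one.

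Gata proteins act with cofactors. A list of 13 related genes held such cofactors and also Trps1, Gatad1, Gatad2a and Gatad2b, which carry GATA-type zinc fingers themselves. Of the 9 tested, 2 rose and 7 fell, or 2 and 4 after scaling. Trps1, Gatad1, Gatad2a and Gatad2b were all among the falls as deposited, so the count is not one of cofactors alone. The list's median log2 difference was −0.36 against −0.19 over all genes. Zfpm1, a zinc finger cofactor of Gata proteins, rose from 21.4 ± 0.402 to 41.5 ± 2.71 RPKM (limma adjusted p = 4.55e-08). Gatad2a, a subunit of the NuRD complex that is named for its GATA-type zinc finger, fell from 17.5 ± 0.664 to 9.39 ± 0.430 RPKM (limma adjusted p = 6.97e-08). The LIM adapter Lmo1 fell from 10.3 ± 1.82 to 3.93 ± 0.311 RPKM (limma adjusted p = 1.78e-06), and its partner Ldb1 from 68.4 ± 3.30 to 49.7 ± 0.925 RPKM (limma adjusted p = 2.79e-06). Most mesothelial markers rose in the libraries where Gata5 and Gata6 rose and Gata2 and Gata3 fell. Of 9 tested 7 rose, 1 fell and 1 did not pass, or 8, 1 and 0 after scaling. Over all tested genes 25.7% rose as deposited and 39.9% after scaling. The summed mesothelial markers were at 229 to 297 RPKM in the Ad-control and 706 to 772 RPKM in the Ad-KLK8 libraries. Among these Upk3b rose from 69.9 ± 13.9 to 405 ± 19.5 RPKM (limma adjusted p = 1.99e-08) and Wt1 from 78.3 ± 3.94 to 105 ± 4.75 RPKM (limma adjusted p = 1.59e-05), while the keratin Krt19 fell from 22.5 ± 8.43 to 0.758 ± 0.213 RPKM (limma adjusted p = 7.51e-08). Fibroblast markers also moved, 10 of 12 rising and 2 falling under both scales, with sums of 2857 to 3090 RPKM and 5476 to 5693 RPKM. Their part in the Gata values was not tested.

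**Figure D4:**
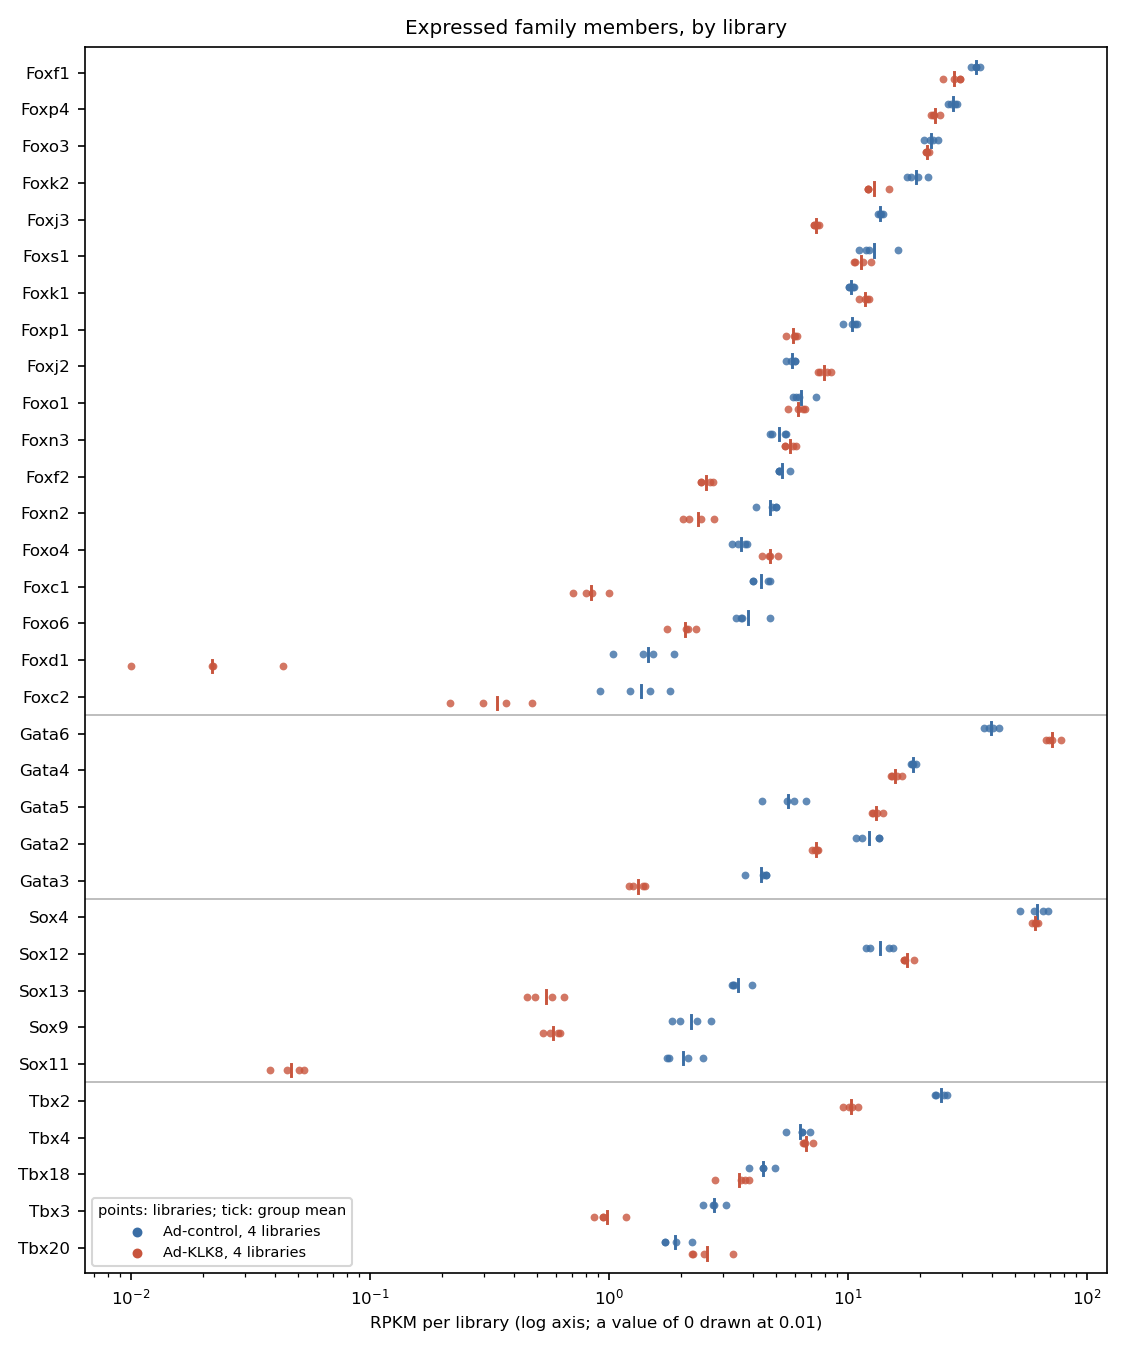
RPKM of the 33 members that reached 1 RPKM in a group, for each library on a log axis; small points are libraries, ticks are the means of the 4 Ad-control (blue) and 4 Ad-KLK8 (red) libraries. Foxd1 and Sox11 are the genes whose Ad-KLK8 values lie farthest below their Ad-control values.

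Among the 19 tested Fox genes 3 were higher, 11 lower and 5 did not pass, and the summed Fox level was 192.6 to 201.6 RPKM in the Ad-control libraries and 153.9 to 157.0 RPKM in the Ad-KLK8 libraries. After scaling the counts were 6 higher, 9 lower and 4 not passing. As deposited 57.9% of the tested Fox genes were lower, against 52% of all tested genes. The lower ones include Foxc2 and Foxd1, which reached the 0.5 RPKM minimum only through the Ad-control libraries, so the Fox share is a description only. The Foxc genes, the Foxf genes and Foxd1 are known as factors of mesodermal and stromal cells. Foxc1, needed for vascular, skeletal and eye mesenchyme, had 3.99, 4.70, 4.01 and 4.65 RPKM in the Ad-control libraries and 0.704, 0.803, 0.851 and 1.004 RPKM in the Ad-KLK8 libraries. The highest Ad-KLK8 value was far below the lowest Ad-control value, and the log2 difference was −1.54 (SE 0.074, limma adjusted p = 2.33e-08). Its relative Foxc2, known from lymphatic valves, went from 1.36 ± 0.378 to 0.340 ± 0.111 RPKM (SD, n = 4) and fell, with a log2 difference of −0.81 (SE 0.11, limma adjusted p = 7.67e-05). Foxd1, a marker of the kidney stroma, had 1.87, 1.39, 1.04 and 1.53 RPKM in the Ad-control libraries and 0.0220, 0, 0.0219 and 0.0434 RPKM in the Ad-KLK8 libraries. This was 234 reads over the 4 Ad-control libraries and 4 reads over the 4 Ad-KLK8 libraries, a ratio of 66.1 with a counting interval of 25.5 to 245 (exact binomial, 95%), and the log2 difference was −1.26 (SE 0.096, limma adjusted p = 6.52e-07).

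Foxf1, the lung mesenchyme and capillary factor and the highest Fox gene, had 35.8, 34.3, 34.4 and 32.9 RPKM in the Ad-control libraries and 29.5, 24.9, 29.4 and 27.8 RPKM in the Ad-KLK8 libraries. As deposited it was lower, with a log2 difference of −0.29 (SE 0.055, limma adjusted p = 0.000633), but after scaling the difference was −0.054 (limma adjusted p = 0.398), which did not pass. Its relative Foxf2 had 5.14, 5.14, 5.14 and 5.73 RPKM in the Ad-control libraries and 2.65, 2.42, 2.42 and 2.73 RPKM in the Ad-KLK8 libraries. Foxf2 fell under both scales, with a log2 difference of −0.82 (SE 0.058, limma adjusted p = 3.36e-07) as deposited.

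Foxp1 and Foxp4, repressors known from lung epithelium, were both lower as deposited. Foxp4 had 28.2, 26.1, 28.6 and 27.1 RPKM in the Ad-control libraries and 22.3, 24.3, 23.0 and 22.7 RPKM in the Ad-KLK8 libraries. Its log2 difference was −0.24 (SE 0.044, limma adjusted p = 0.000438) and −0.0053 (limma adjusted p = 0.908) after scaling. Foxp1 had 9.55, 10.9, 10.4 and 10.7 RPKM in the Ad-control libraries and 5.93, 6.11, 6.01 and 5.52 RPKM in the Ad-KLK8 libraries, and fell under both scales, with a log2 difference of −0.72 (SE 0.053, limma adjusted p = 4.91e-07) as deposited.

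The Foxj, Foxk and Foxn genes split within each pair. Foxj2 had 5.98, 5.51, 6.01 and 5.79 RPKM in the Ad-control libraries and 7.48, 8.21, 7.64 and 8.47 RPKM in the Ad-KLK8 libraries. It rose by a log2 difference of 0.39 (SE 0.053, limma adjusted p = 5.83e-05), while Foxj3 had 13.6, 13.3, 13.7 and 14 RPKM in the Ad-control libraries and 7.21, 7.44, 7.58 and 7.20 RPKM in the Ad-KLK8 libraries and fell, with a log2 difference of −0.81 (SE 0.041, limma adjusted p = 3.31e-08). Foxj3 was 2.27 to 2.42 times Foxj2 in each Ad-control library and 0.849 to 0.993 times in each Ad-KLK8 library. Foxk1 and Foxk2, linked in mouse to glycolysis and to autophagy genes, likewise parted. Foxk1 had 10.5, 10.1, 10.1 and 10.5 RPKM in the Ad-control libraries and 12.2, 12, 11.1 and 11.8 RPKM in the Ad-KLK8 libraries and rose by a log2 difference of 0.17 (SE 0.044, limma adjusted p = 0.00372). Foxk2 had 21.6, 17.6, 19.7 and 18.4 RPKM in the Ad-control libraries and 12.1, 14.9, 12.1 and 12.1 RPKM in the Ad-KLK8 libraries and fell, with a log2 difference of −0.56 (SE 0.078, limma adjusted p = 6.71e-05), Ad-KLK8 replicate 2 being the highest of its group. Foxn2 went from 4.72 ± 0.420 to 2.35 ± 0.319 RPKM and fell, with a log2 difference of −0.77 (SE 0.082, limma adjusted p = 7.72e-06), whereas Foxn3, a checkpoint-linked repressor, was at 5.13 ± 0.407 and 5.72 ± 0.294 RPKM and did not pass as deposited (limma adjusted p = 0.0683) but did after scaling, at 0.34 (limma adjusted p = 0.000311). Foxs1, known from perivascular and neural crest cells, was at 12.9 ± 2.23 and 11.4 ± 0.902 RPKM and passed under neither scale, at −0.15 (SE 0.1, limma adjusted p = 0.179) as deposited.

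The FoxO genes encode the forkhead factors that AKT phosphorylates and keeps out of the nucleus when insulin or growth factor signalling is on. Foxo3 was the highest, with 22.7, 22.0, 20.7 and 23.8 RPKM in the Ad-control libraries and 21.3, 21.8, 21.3 and 21.1 RPKM in the Ad-KLK8 libraries. Its groups overlapped, and the log2 difference was −0.058 (SE 0.045, limma adjusted p = 0.259) as deposited and 0.18 (limma adjusted p = 0.00465) after scaling. Foxo1 was at 6.36 ± 0.660 and 6.21 ± 0.433 RPKM, with −0.029 (SE 0.072, limma adjusted p = 0.726) as deposited and 0.18 (limma adjusted p = 0.0426) after scaling. Foxo4 rose from 3.56 ± 0.223 to 4.71 ± 0.306 RPKM, a log2 difference of 0.32 (SE 0.06, limma adjusted p = 0.000545), and Foxo6, best known from brain, went from 3.82 ± 0.611 to 2.08 ± 0.236 RPKM and fell, with a log2 difference of −0.64 (SE 0.093, limma adjusted p = 8.41e-05). RNA levels do not show where in the cell these proteins are.

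All 17 genes listed as FoxO regulators were tested, of which 4 rose, 10 fell and 3 did not pass, or 9, 6 and 2 after scaling, with a median log2 difference of −0.12 as deposited. The deacetylase Sirt1 fell from 6.87 ± 0.539 to 2.25 ± 0.318 RPKM (limma adjusted p = 1.42e-07), the kinase Stk4 from 22.2 ± 0.878 to 14 ± 0.0768 RPKM (limma adjusted p = 1.57e-07) and its relative Stk3 from 13.2 ± 0.674 to 8.59 ± 0.539 RPKM (limma adjusted p = 4.38e-06). Pik3r1, a regulatory subunit of phosphoinositide 3-kinase, rose from 3.35 ± 0.246 to 7.25 ± 0.35 RPKM (limma adjusted p = 1.57e-07). Of 20 listed FoxO targets 18 were tested, and 5 rose, 9 fell and 4 did not pass, or 8, 7 and 3 after scaling, with a median log2 difference of −0.24 as deposited, so the targets did not move in a single direction. Gadd45a, a growth arrest gene, fell from 99.4 ± 13.4 to 36.2 ± 1.16 RPKM (limma adjusted p = 7.12e-08), and Txnip, the thioredoxin inhibitor, from 157 ± 18.5 to 72.2 ± 5.22 RPKM (limma adjusted p = 4.25e-07). The death gene Bcl2l11 fell from 5.18 ± 0.209 to 2.66 ± 0.164 RPKM (limma adjusted p = 4.67e-07), whereas Sesn1, a stress-induced inhibitor of mTOR signalling, rose from 5.21 ± 0.456 to 13.9 ± 1.25 RPKM (limma adjusted p = 7.99e-08).

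Of the 6 tested Sox genes 1 was higher, 3 lower and 2 did not pass, or 2, 3 and 1 after scaling. As deposited 50% were lower, against 52% of all tested genes. The lower ones include Sox11, which reached the 0.5 RPKM minimum only through the Ad-control libraries. The summed Sox level was 74.6 to 93.2 RPKM and 78.8 to 84.7 RPKM. The SoxC group, Sox4, Sox11 and Sox12, whose members are close relatives and overlap in function in mouse development, did not all have the same call. Sox4, whose share of the summed Sox RPKM went from 71.9% ± 1.60 to 74.9% ± 0.7004 (Ad-control to Ad-KLK8), had 68.9, 59.8, 65.5 and 52.3 RPKM in the Ad-control libraries and 61.2, 62.6, 58.9 and 60.4 RPKM in the Ad-KLK8 libraries. The Ad-control values spread around the Ad-KLK8 values, with a log2 difference of −0.013 (SE 0.074, limma adjusted p = 0.877) as deposited and 0.23 (limma adjusted p = 0.0119) after scaling. Sox12 had 14.9, 11.9, 15.5 and 12.4 RPKM in the Ad-control libraries and 17.2, 18.9, 17.2 and 17.3 RPKM in the Ad-KLK8 libraries. It rose by a log2 difference of 0.35 (SE 0.08, limma adjusted p = 0.00201), with the highest value in Ad-KLK8 replicate 2. Sox11, known from neural and mesenchymal progenitors, had 1.74, 2.48, 2.13 and 1.79 RPKM in the Ad-control libraries and 0.0448, 0.0532, 0.0383 and 0.0506 RPKM in the Ad-KLK8 libraries. This was 1118 reads over the Ad-control libraries against 29 over the Ad-KLK8 libraries, a ratio of 43.5 with a counting interval of 30.2 to 65.3, and the log2 difference was −1.53 (SE 0.083, limma adjusted p = 5.17e-08).

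Sox9, the cartilage regulator that also marks distal lung epithelial progenitors, had 1.84, 2.66, 1.99 and 2.33 RPKM in the Ad-control libraries and 0.626, 0.529, 0.611 and 0.567 RPKM in the Ad-KLK8 libraries. It fell, with a log2 difference of −1.01 (SE 0.083, limma adjusted p = 1.13e-06), and no Ad-KLK8 value reached the Ad-control range. Sums of the lung epithelial markers overlapped between the groups, at 2.91 to 8.31 RPKM and 0.904 to 3.37 RPKM. Scgb1a1 was at 0 in every library and 8 of 10 were under 0.5 RPKM. Of the 2 tested, Sftpc, at means of 2.38 and 1.01 RPKM, did not pass (limma adjusted p = 0.225). Hopx fell from 1.72 ± 0.243 to 0.551 ± 0.299 RPKM (limma adjusted p = 0.000106). The part of these markers in Sox9 was not tested. Sox13, of the SoxD group, had 3.30, 3.98, 3.28 and 3.32 RPKM in the Ad-control libraries and 0.580, 0.650, 0.490 and 0.456 RPKM in the Ad-KLK8 libraries. Its fall, with a log2 difference of −1.53 (SE 0.072, limma adjusted p = 2.07e-08), was among the 3 largest of the members on this scale, while its SoxD relative Sox5 was at 0.903 ± 0.0660 and 0.896 ± 0.0862 RPKM and did not pass (limma adjusted p = 0.931). Of 12 listed Sox partners 9 were tested, 4 rose, 4 fell and 1 did not pass, or 4, 3 and 2 after scaling, with a median log2 difference of −0.13. The importin Kpnb1 fell from 114 ± 3.47 to 66.2 ± 3.91 RPKM (limma adjusted p = 1.02e-07) and Tcf7, a Wnt pathway factor with the same kind of box, from 5.33 ± 0.475 to 2.68 ± 0.532 RPKM (limma adjusted p = 2.62e-05). The Wnt effector Ctnnb1 rose from 200.04 ± 6.10 to 219 ± 4.65 RPKM (limma adjusted p = 0.00889).

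Of the 7 tested Tbx genes 1 was higher, 5 lower and 1 did not pass, or 2, 4 and 1 after scaling. As deposited 71.4% were lower, against 52% of all tested genes. The lower ones include Tbx5 and Tbx15, which reached the 0.5 RPKM minimum only through the Ad-control libraries. The minimum favours a lower call for them, so the Tbx share is a description only. The summed Tbx level was 41.5 to 43.3 RPKM in the Ad-control libraries and 24.0 to 25.7 RPKM in the Ad-KLK8 libraries. Tbx2, a repressor of lung and heart mesenchyme, had 25.2, 23.2, 23.3 and 26.0 RPKM in the Ad-control libraries and 9.57, 10.3, 10.1 and 11 RPKM in the Ad-KLK8 libraries. It fell, with a log2 difference of −1.17 (SE 0.054, limma adjusted p = 1.79e-08) and of −0.94 (limma adjusted p = 8.56e-08) after scaling. Tbx4, which is used to mark lung mesenchyme, had 6.41, 6.44, 6.91 and 5.48 RPKM in the Ad-control libraries and 6.59, 6.56, 7.11 and 6.48 RPKM in the Ad-KLK8 libraries. Its groups overlapped and it did not pass as deposited, at 0.075 (SE 0.065, limma adjusted p = 0.312), but passed as higher after scaling, at 0.29 (limma adjusted p = 0.00167). Tbx2 took 57.8% ± 3.23 to 40.9% ± 1.60 of the summed Tbx RPKM and Tbx4 took 14.9% ± 1.46 to 26.7% ± 1.09, Ad-control to Ad-KLK8. Smooth muscle markers, another mesenchymal list, had 3 of 7 tested genes falling and 4 not passing as deposited, but 3 rising, 2 falling and 2 not passing after scaling, with sums of 705 to 1032 RPKM and 810.1 to 1105 RPKM, and their part was not tested.

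Tbx3, close to Tbx2 in sequence, had 2.75, 3.10, 2.72 and 2.47 RPKM in the Ad-control libraries and 0.944, 0.940, 1.18 and 0.864 RPKM in the Ad-KLK8 libraries. It fell, with a log2 difference of −0.92 (SE 0.074, limma adjusted p = 8.89e-07). Tbx20, a heart factor, had 1.91, 2.22, 1.71 and 1.72 RPKM in the Ad-control libraries and 2.22, 3.29, 2.50 and 2.25 RPKM in the Ad-KLK8 libraries. It rose by a log2 difference of 0.30 (SE 0.1, limma adjusted p = 0.0189), so that Tbx3, 1.398 to 1.59 times Tbx20 in each Ad-control library, was at 0.285 to 0.474 times Tbx20 in each Ad-KLK8 library. Tbx18, an epicardial and mesenchymal factor, was at 4.41 ± 0.438 and 3.48 ± 0.487 RPKM, lower as deposited, with a log2 difference of −0.27 (SE 0.09, limma adjusted p = 0.0166), and at −0.078 (limma adjusted p = 0.451) after scaling. Tbx5 and Tbx15 were under 1 RPKM in both groups and fell, Tbx5 from 0.973 ± 0.143 to 0.459 ± 0.0955 RPKM (limma adjusted p = 0.000412) and Tbx15 from 0.95 ± 0.221 to 0.411 ± 0.0813 RPKM (limma adjusted p = 0.000671).

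Heart and mesoderm factors outside the 4 families were listed as companions of the Gata and Tbx genes. Of 18, 14 were tested, 6 rose, 5 fell and 3 did not pass, or 8, 5 and 1 after scaling, with a median log2 difference of 0.029 as deposited against −0.19 over all genes. The heart factors Nkx2-5 and Hand1 were listed at 0 in every library. Tcf21, an epicardial and fibroblast factor that is also on the list of fibroblast markers, rose from 2.83 ± 0.649 to 25.8 ± 1.88 RPKM (limma adjusted p = 6.19e-09). The nuclear receptors Nr2f2 and Nr2f1 fell, Nr2f2 from 12.3 ± 0.468 to 5.61 ± 0.426 RPKM (limma adjusted p = 6.9e-08) and Nr2f1 from 3.14 ± 0.502 to 0.536 ± 0.159 RPKM (limma adjusted p = 3.49e-07). The homeobox factor Meis1 fell from 9.25 ± 0.543 to 6.43 ± 0.216 RPKM (limma adjusted p = 1.24e-05).

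Several members lie side by side in the RefSeq gene order and can be compared as neighbours. Tbx2 and Tbx4 adjoin on chromosome 11 with no coding gene between them, and Tbx2 fell while Tbx4 did not pass as deposited. Foxq1, Foxf2 and Foxc1 adjoin on chromosome 13, where Foxf2 and Foxc1 fell and Foxq1, at 0.779 ± 0.242 and 0.905 ± 0.195 RPKM, did not pass (limma adjusted p = 0.408). Tbx3 and Tbx5 adjoin on chromosome 5 and both fell. Foxf1 and Foxc2 lie on chromosome 8 with 1 coding gene between them, and Foxc2 fell under both scales. A difference between neighbours was not itself tested.

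Within families, 8 of the 183 pairs of members expressed at 1 RPKM or more changed place in every library. Besides the pairs Gata2 and Gata5, Foxj3 and Foxj2, and Tbx3 and Tbx20 given above, Foxc1, Foxf2 and Foxn2 each lay above Foxo4 in every Ad-control library and below it in every Ad-KLK8 library. Foxp1 against Foxj2 and Foxj3 against Foxk1 made up the rest. The pairs were found after the values were seen and are a description.

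The 48 members under 1 RPKM in both groups differed widely in reads, from 0 in all libraries to Sox5 at 786 reads over the Ad-control and 880 over the Ad-KLK8 libraries. Besides the 8 listed at 0 and the tested ones, 21 were Fox genes (among them Foxa1, Foxa2, Foxa3, Foxb2, Foxd2, Foxd3, Foxd4, Foxe1, Foxe3, Foxh1, Foxi1, Foxi3, Foxj1, Foxl1, Foxl2, Foxn1, Foxn4, Foxp2, Foxp3 and Foxr2), none with a group mean above the 0.758 RPKM of Foxa2. A further 12 were Sox genes (Sox1, Sox2, Sox3, Sox6, Sox7, Sox8, Sox10, Sox15, Sox17, Sox18, Sox21 and Sox30), the highest group mean being 0.407 RPKM for Sox30, and 3 were Tbx genes (Tbx1, Tbx6 and Tbx21), the highest being 0.283 RPKM for Tbx21. Of the members with reads only in Ad-control libraries, Sox3, Sox21 and Tbx21 had the most, with 43, 33 and 47 reads over the 4 libraries against 0, followed by Foxa1 with 18 and Sox17 with 17. The first 3 were at least 16.2-fold, 12.4-fold and 17.7-fold higher there, with 3 reads over the group as the limit of a count of 0. Tbx21 is the T-box factor of type 1 T cells. Of 5 tested leukocyte markers 4 fell as deposited and 2 after scaling, where 52% and 37.3% of all tested genes fell. The list's sums were 117 to 257 RPKM and 73.2 to 106 RPKM, with Cd3e and Cd79a at means under 0.1 RPKM in both groups. The part of these markers in Tbx21 and Gata3 was not tested.

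Foxl2, an ovarian factor, had 49 reads against 2, a ratio of 27.7 (counting interval 7.26 to 235). Foxa2, the endoderm pioneer factor, had 117 reads against 21, a ratio of 6.29 (3.93 to 10.5). Foxd2 had 113 against 15, a ratio of 8.51 (4.95 to 15.7). Sox7 of the endothelial SoxF group had 34 against 4, a ratio of 9.60 (3.42 to 37.2). These ratios are per recovered read of the library and their intervals cover counting error only. Tbx6, a factor of presomitic mesoderm, went the other way, with 12 against 27 reads and a ratio of 0.502 whose interval, 0.232 to 1.02, includes 1. Foxp3, the factor of regulatory T cells, had means of 0.0116 and 0.0206 RPKM.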

How the data were processed

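The authors deposited RPKM values for 21878 mouse genes in 8 libraries, with no further scaling on record. TRIzol RNA and a strand-marking mRNA kit were used, per the labels' protocols. The tools named in the submitters' processing notes are HISAT2, Cufflinks, DESeq, Trimmomatic and SAMtools, without versions, and the build is the human GRCh38, although symbols and gene identifiers belong to mouse. Coordinates are therefore given only for RefSeq promoters, in their own build. The sources used here do not say how reads shared by related family members were assigned.

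Groups were compared with limma 3.58.1 under R 4.3.3 (lmFit, then eBayes with a trend, two-sided) on log2(RPKM + 1), for genes whose mean reached 0.5 RPKM. Benjamini-Hochberg adjustment ran over all 11998 tested genes, and calls were made at 0.05. Tables and the exact tests for Klk8 and for low read counts used Python 3.11.15, pandas 2.3.3 and scipy 1.17.1. In all 17461 genes with a value above 0 the RPKM were whole multiples of 1 read (tolerance 0.001 read), taking the smallest counts that met this. A gene with a value in only 1 library meets it by construction. For genes with values in few libraries the match is therefore no check of their counts. Voom on the recovered reads was an alternative, calling 9330 genes and 30 members. Median-of-ratios scaling of the RPKM was the other setting given throughout. Members at 1 RPKM or more in a group are described with values, and of each pathway list up to 4 tested genes with the smallest adjusted p. A few members and listed genes are not reported here by name. The members, lists and rules were chosen with earlier results of these data known.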

Additional observations from a re-analysis of the deposited data

Results flagged for a closer look

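Among 68 groups of 4 libraries examined (the 2 groups of each named member and of Klk8), 7 held a library far from the other 3, and chance alone gives about 1 in 20. Klk8 reached 3263 RPKM in Ad-KLK8 replicate 2, against 1159 to 1354 RPKM in the other 3. In that library Foxk2 was also the highest of its group, at 14.9 RPKM, and Sox12 at 18.9 RPKM. In the Ad-control group the separate values were 4.73 RPKM for Foxo6 in replicate 1, 3.98 RPKM for Sox13 in replicate 2, 3.71 RPKM for Gata3 in replicate 3 and 5.73 RPKM for Foxf2 in replicate 4. For Foxk2, Foxo6, Sox13, Gata3 and Foxf2 the library did not bring the groups to overlap, and without it each still passed the test in the same direction. Sox12 also passed without Ad-KLK8 replicate 2.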

How the results depend on the processing

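Of the 27 named members that were called, 23 kept their call and direction in every one of the 22 other settings that gave them a value, and Foxf1, Foxp4, Gata4 and Tbx18 did not. Leaving out each library in turn gave 29 to 30 members called and 8899 to 9353 genes called over the table. A fit with the replicate number as a block called 29 members and 9170 genes, although same-numbered libraries did not deviate together (correlations of −0.091, −0.066, 0.011 and −0.048) and share only a number. Without a filter on low values 47 of 73 members were called in either direction, against 10668 of 17461 genes. Of these members 7 were higher and 40 lower. With a mean of at least 5 RPKM 13 of 19 members were called in either direction, against 6404 of 8017 genes. Of these members 5 were higher and 8 lower. The lower share of all genes was not counted under either setting, so these lower counts are a description only. Under median-of-ratios scaling 12 members were higher, where 39.9% of all tested genes were higher against 25.7% as deposited. Upper-quartile scaling and quantile normalization each called 30 of 37 members in either direction, against 9275 and 9265 of 11998 genes. Directions turned for members with small differences: under median-of-ratios scaling Foxo1 (0.18), Foxo3 (0.18), Foxs1 (0.074), Gata4 (0.00041) and Sox4 (0.23), under upper-quartile scaling Foxo1 (0.18), Foxo3 (0.18), Foxs1 (0.072) and Sox4 (0.23), and under quantile normalization Foxo1 (0.24), Foxo3 (0.12), Foxs1 (0.076), Sox4 (0.030) and Tbx18 (0.013). With 1 library left out Sox4 ranged from −0.088 to 0.042 and turned without Ad-control replicate 1 or 3 or Ad-KLK8 replicate 3, and Foxo1 ranged from −0.061 to 0.032 and turned without Ad-control replicate 4 or Ad-KLK8 replicate 2. Averaging libraries that differed little (Ad-control replicates 1 and 3, and Ad-KLK8 replicates 1, 3 and 4), a choice made after seeing the data, turned Sox4 (0.045). For Klk8, leaving out 1 library gave log2 differences of −0.036 to 0.46, the negative one without Ad-KLK8 replicate 2. With a pseudocount of 0.1, Foxc2 (−1.73), Tbx3 (−1.40) and Foxf2 (−1.02) also passed 2-fold. Members under 0.5 RPKM are limited by depth. The causes were not tested.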

Other observations

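Of 12 listed endothelial transcription factors outside the 4 families 7 were tested and all 7 fell under both scales, where 52% of all tested genes fell as deposited and 37.3% after median-of-ratios scaling. The other 5 had means under 0.5 RPKM. Fli1 and Erg are also on the list of endothelial markers, and Nr2f2 and Mef2c on that of heart and mesoderm factors. The counts of these lists are therefore not separate observations. Klf4, a flow-responsive Krüppel-like factor that many cell types express, fell from 61.1 ± 2.55 to 14.1 ± 0.665 RPKM (SD, n = 4; limma adjusted p = 4.51e-10). Hhex, a homeobox factor of endoderm and blood vessel progenitors, fell from 2.66 ± 0.520 to 0.192 ± 0.0762 RPKM (limma adjusted p = 1.93e-07). Hhex reached the 0.5 RPKM minimum only through the Ad-control libraries. Ets1 fell from 24.1 ± 3.24 to 8.18 ± 0.922 RPKM (limma adjusted p = 1.76e-07). The endothelial factor Erg was at means of 0.0168 and 0.00737 RPKM in the Ad-control and Ad-KLK8 groups.

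Of 17 listed mesenchymal factors 11 were tested, 1 rose, 8 fell and 2 did not pass, or 3, 8 and 0 after median-of-ratios scaling, and 6 had means under 0.5 RPKM. Over all tested genes 52% fell as deposited and 37.3% after that scaling. The zinc finger repressor Snai2 fell from 20.7 ± 0.661 to 2.23 ± 0.371 RPKM (limma adjusted p = 1.41e-09). Prrx1, a limb and fibroblast homeobox factor, fell from 17.5 ± 2.28 to 7.77 ± 0.497 RPKM (limma adjusted p = 7.24e-07), and Zeb2 from 23.7 ± 0.918 to 15.2 ± 0.386 RPKM (limma adjusted p = 2.54e-07). In the same libraries 10 of 12 tested fibroblast markers rose and 2 fell, where 25.7% of all tested genes rose as deposited. The part of these markers in the values above was not tested.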
